A study of Homo sapiens with 15 samples.

Results

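The collagen genes were followed from human induced pluripotent stem cells (hiPSCs) through retinal organoids to cultured cells. The study names these cells induced Müller glial cells (iMGCs). A gene was included when its symbol consisted of COL, a number, A and a number, which selected 44 of the 19684 genes in the tables. They were grouped by the kind of assembly they form into 11 fibrillar, 6 basement membrane and 27 other collagens. Poly(A) RNA was sequenced from 15 libraries, 3 in each of 5 groups, and all of them came from BC1-GFP, a hiPSC line labelled as wild type and named for the reporter GFP. The hiPSCs were undifferentiated cells grown on Matrigel. D70-ROs and D150-ROs were neural retina layers cut from retinal organoids 70 and 150 days after induction, and each library pooled several organoids. P1 iMGCs and P5 iMGCs were cells from the neural retina of D150-ROs that had been dissociated, plated on Matrigel in medium with 10% fetal bovine serum and passaged, and they were collected on day 5 of passage 1 or passage 5. All groups therefore stand for a single cell line, and the iMGCs differed from the D150-ROs in cell composition, culture surface and medium together. By the study's methods the organoid medium also held 10% fetal bovine serum. A supplement of that medium was exchanged between days 70 and 150, so organoid age and medium cannot be told apart.

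Collagens are trimeric proteins of the extracellular matrix, each built from alpha chains that wind into a triple helix. Fibrillar collagens such as types I, II, III, V and XI are cleaved outside the cell and pack into fibrils, whereas type IV chains form the flexible network of basement membranes. The remaining types decorate fibrils, form beaded filaments or hexagonal nets, anchor basement membranes or span the plasma membrane. In the eye, type II, IX and XI chains belong to the vitreous, type IV and XVIII chains to the inner limiting membrane on which Müller glial endfeet rest, and type I chains are the main ones of sclera and scar.

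The 6 type IV genes sit in the genome as 3 pairs that run in opposite directions from neighbouring start sites. The stretches between the starts are shown because the chains of each pair are compared with each other in the results that follow. In the promoter windows of RefSeq (GRCh38.p14), the starts of COL4A1 (minus strand) and COL4A2 (plus strand) were 127 bases apart on chromosome 13, those of COL4A4 (minus) and COL4A3 (plus) 419 bases apart on chromosome 2, and those of COL4A6 (minus) and COL4A5 (plus) 380 bases apart on chromosome X. The first sequence is the whole stretch between the COL4A1 and COL4A2 starts, chr13:110307158-110307283. The second is the 250 bases before the COL4A3 start, chr2:227164374-227164623, and the third the 250 bases before the COL4A5 start, chrX:108439588-108439837. All are written 5′ to 3′ on the plus strand, and capitals mark matches to CCAAT or GGGCGG on either strand, none of which overlap.
COL4A1 and COL4A2: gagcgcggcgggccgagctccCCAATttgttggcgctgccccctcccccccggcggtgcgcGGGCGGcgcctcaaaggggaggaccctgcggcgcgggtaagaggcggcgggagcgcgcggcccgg
COL4A3 and COL4A4: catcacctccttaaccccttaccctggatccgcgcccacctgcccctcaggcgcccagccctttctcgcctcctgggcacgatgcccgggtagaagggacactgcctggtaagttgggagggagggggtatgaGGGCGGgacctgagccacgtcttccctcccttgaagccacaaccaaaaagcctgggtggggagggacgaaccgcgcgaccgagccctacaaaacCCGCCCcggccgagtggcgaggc
COL4A5 and COL4A6: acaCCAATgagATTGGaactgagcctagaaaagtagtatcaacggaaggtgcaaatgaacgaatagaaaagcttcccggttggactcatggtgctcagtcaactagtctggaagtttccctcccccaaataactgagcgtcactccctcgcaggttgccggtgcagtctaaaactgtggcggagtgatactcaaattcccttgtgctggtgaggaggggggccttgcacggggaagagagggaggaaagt
The stretch between COL4A1 and COL4A2 was 80.2% G or C and held 1 CCAAT and 1 GGGCGG match. The window before COL4A3 was 66.4% G or C with 2 GGGCGG matches, and the window before COL4A5 was 51.2% G or C with 2 CCAAT matches. RefSeq windows, which run from 250 bases before to 50 bases after a start, were matched for 32 of the 44 collagens, several with more than 1 start, giving 44 windows. COL1A1, COL1A2, COL2A1, COL3A1, COL5A2, COL6A1, COL6A5, COL8A1, COL9A3, COL14A1, COL20A1 and COL22A1 had none. Counting both strands, GGGCGG was found in 24 collagen windows (54.5%) against 45.0% of all 35116 windows, and CCAAT in 14 (31.8%) against 34.6%. TATAAA was found in 8 (18.2%) against 11.5%, and the AP-1 letters TGANTCA in 1 (2.27%) against 7.71%. Such a match is a description of letters, and its absence says nothing about a factor.

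Library totals of expected counts lay between 11349600 (a D70-RO library) and 20398755. Marker genes were read as summed FPKM, which is read density corrected for transcript length and sequencing depth. The 8 pluripotency markers summed to 3765 to 3911 FPKM in hiPSCs and to at most 90.95 FPKM in the other groups. The 10 photoreceptor markers summed to 1185 to 1322 FPKM in D150-ROs and 0.12 to 0.39 FPKM in P1 iMGCs. Of the 10 Müller glia markers, 9 reached a mean of 1 FPKM in D150-ROs, 5 in P1 iMGCs and 6 in P5 iMGCs. VIM led at 1065, 2160 and 2858 FPKM, and every marker but VIM had a lower mean FPKM in P1 iMGCs than in D150-ROs. DKK3 differed little, at 273.1 FPKM in D150-ROs and 246.2 FPKM in P1 iMGCs. It was at 390.0 FPKM in P5 iMGCs and is given no direction. From D150-ROs to P1 iMGCs, GLUL went from 100.2 to 13.4 FPKM, SOX9 from 42.6 to 5.21 FPKM and SLC1A3 from 28.0 to 0.373 FPKM. AQP4 was listed at 0 in all 6 iMGC libraries but was already low in D150-ROs at 0.1933 FPKM, and RLBP1 and CA2 were at 0 in P1. The 12 mesenchymal markers, a list without collagens, summed to 282 to 340 FPKM in hiPSCs, of which THY1 gave 275.3, to 23.5 to 41.8 FPKM in organoids, to 183 to 189 FPKM in P1 and to 203 to 219 FPKM in P5 iMGCs. Pigment epithelium markers summed to 120 to 138 FPKM in hiPSCs, 101 to 158 FPKM in D70-ROs and 38.6 to 44.5 FPKM in D150-ROs. Of these sums PMEL gave means of 127.3, 102.4 and 1.29 FPKM, and RPE65 was at 0.0433 FPKM in D70-ROs. Lens markers summed to 34.6 to 57.3 FPKM in D70-ROs and 4.47 to 9.06 FPKM in D150-ROs, and endothelial markers to 15.7 to 18.2 and 86.1 to 93.4 FPKM. In D150-ROs 1 of the 8 endothelial markers, KDR, was at 1 FPKM or more, and CDH5 and ERG were at 0. Cartilage markers summed to at most 18.0 FPKM outside the hiPSCs, where they reached 101.5, mostly through CNMD at a mean of 91.4 FPKM.

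Collagen transcripts were scarce in organoids and abundant in iMGCs. The summed FPKM of the 44 genes was 563.9 ± 62.7 in hiPSCs (mean ± SD, n = 3 here and throughout), 303.6 ± 33.8 in D70-ROs, 373.7 ± 4.30 in D150-ROs, 4724 ± 63.8 in P1 and 5219 ± 171 in P5 iMGCs. Collagens took 0.261% of the expected counts of hiPSCs, 0.147% and 0.201% of those of D70-ROs and D150-ROs, and 2.97% and 3.28% of those of P1 and P5 iMGCs. The lowest iMGC library summed to 4657 FPKM and the highest of the other libraries to 615.2 FPKM, so these groups did not overlap. In bulk samples, fewer cells of a type and less RNA per cell cannot be told apart. The values of organoids and of P1 and P5 iMGCs stand in separate tables, and a further table that sets D150-ROs beside iMGCs of no stated passage was not used. The study's methods name 1 company for all samples, whereas the series description names another as well and a correction for batches, and neither is tied to particular libraries. A batch between the tables and the change from organoid to iMGC therefore cannot be told apart.

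**Figure D1:**
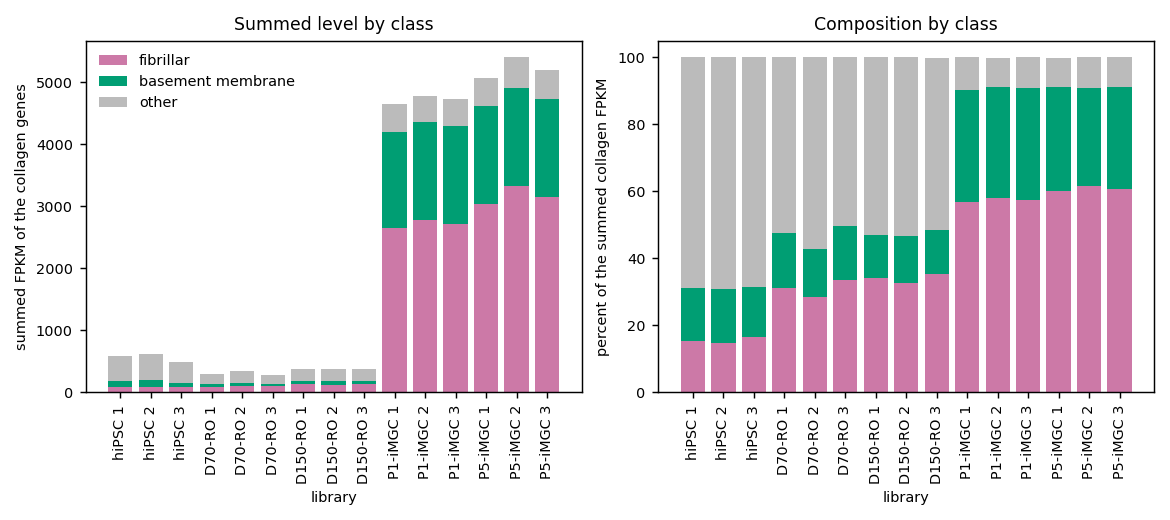
Summed FPKM of the collagen genes in each of the 15 libraries (left) and the percent of that sum in fibrillar, basement membrane and other collagens (right), as stacked bars. The 6 iMGC libraries lie between 4657 and 5401 FPKM and the 9 other libraries at or below 615.2 FPKM, and the other collagens make the largest share outside the iMGCs.

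The composition of the collagen pool also differed by group. In hiPSCs, other collagens made 68.9% ± 0.273 of the sum, fibrillar 15.4% ± 0.942 and basement membrane collagens 15.7% ± 0.708, and COL18A1, COL6A2 and COL6A1 together held 50.2%. In D150-ROs the shares were 52.6% other, 34.1% fibrillar and 13.4% basement membrane. In P1 iMGCs fibrillar collagens made 57.4% ± 0.527 and basement membrane collagens 33.4% ± 0.185, with 9.23% left for the others, and P5 iMGCs held 60.7%, 30.3% and 8.94%. COL1A1, COL4A1 and COL4A2 gave 75.5% of the P1 and 72.5% of the P5 sum. COL1A1 alone was 42.3% of the collagen FPKM and 1.31% of all counts in P1 iMGCs, against 0.742% of the collagen FPKM in D150-ROs.

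**Figure D2:**
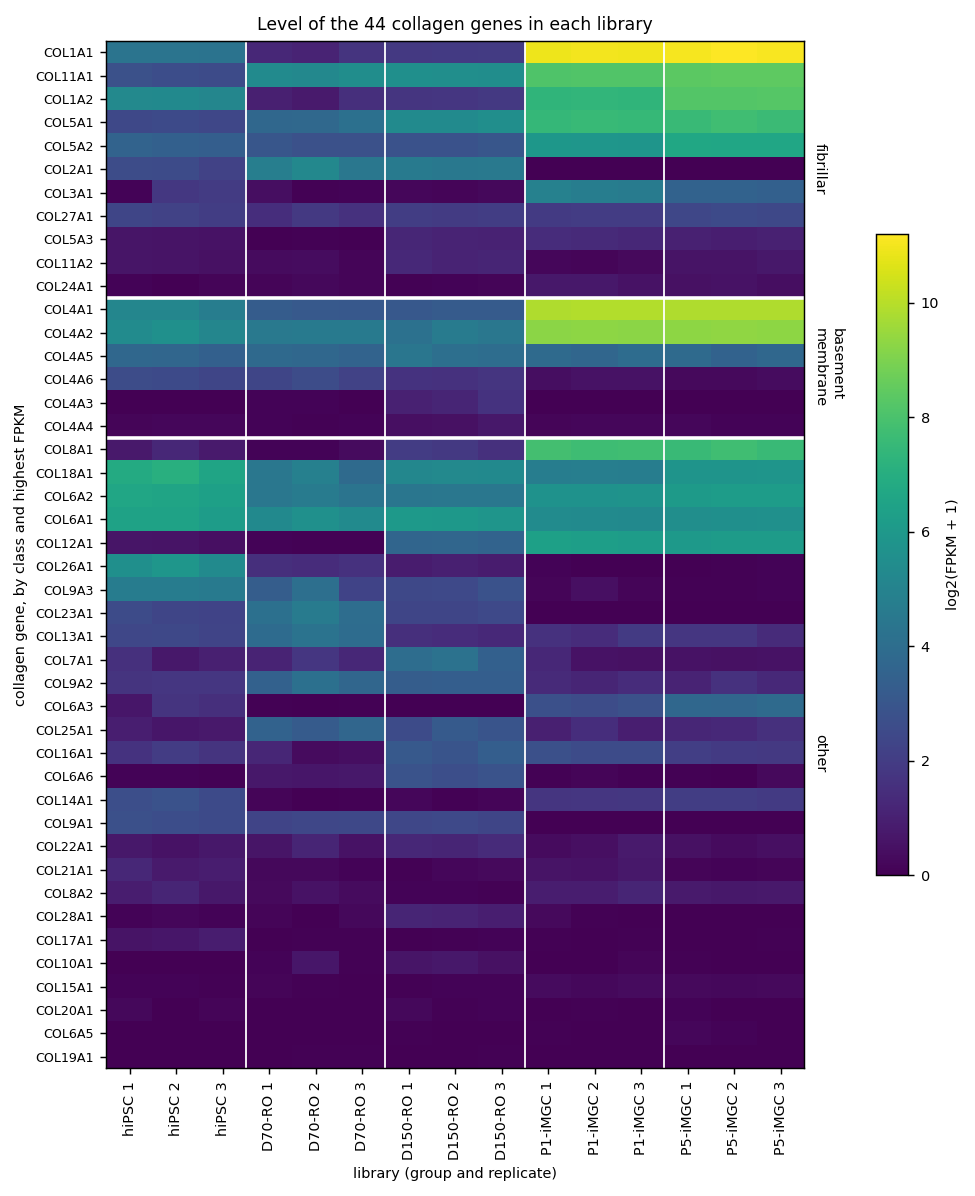
Level of the 44 collagen genes as log2(FPKM + 1), by gene (rows, in 3 classes and by highest FPKM) and library (columns). COL1A1, COL4A1 and COL4A2 are brightest in the 6 iMGC libraries, COL18A1, COL6A1 and COL6A2 in hiPSCs, and COL9A1 and COL23A1 are at 0 in all iMGC libraries.

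All 44 genes had a count in at least 1 library. A mean of 1 FPKM or more was reached by 25 collagens in hiPSCs, by 22 and 30 in the younger and older organoids, and 22 in P1 and 22 in P5 iMGCs, and 100 FPKM by 1, 0, 0, 7 and 7. Each group was the highest for some members, namely hiPSCs for 8, D70-ROs for 5, D150-ROs for 8, P1 iMGCs for 5 and P5 iMGCs for 8. The other 10 collagens stayed under a mean of 1 FPKM throughout. These were COL4A4 and the fibrillar COL24A1, the type VIII chain COL8A2, the hypertrophic cartilage chain COL10A1, and COL6A5, COL15A1, COL17A1, COL19A1, COL20A1 and COL21A1.

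Groups were compared as neighbouring steps with edgeR's quasi-likelihood test on rounded expected counts with TMM scaling, over all genes at 1 FPKM or more in at least 3 of the libraries compared. A gene was called, and is written as having risen or fallen, when its Benjamini-Hochberg adjusted p was under 0.05 and its change at least 2-fold. Fold changes are given as log2 ± SE. Neighbouring comparisons share a group, so their values stand side by side and are not independent of each other. A gene seen at 1 FPKM only in the group where it is high could hardly avoid a call, and this held for 2, 6, 12 and 0 collagens in the 4 comparisons, in the order in which they follow.

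From hiPSCs to D70-ROs, 24 collagens were tested, of which 7 rose, 10 fell and 7 were not called. The 2 that were at 1 FPKM in only 1 of the groups were COL14A1, which fell, and COL25A1, which rose. Of all 12954 genes tested, 43.5% were called, 22.5% higher and 21.1% lower. The median log2 fold change was -0.80 over the collagens tested and 0.02 over all genes. The genes that fell included both type I chains and the chains that led the hiPSC pool. Those that rose included 3 of the 4 transmembrane collagens. Of the type II, IX and XI chains, COL2A1, COL11A1 and COL9A2 rose, COL9A3 fell, COL9A1 was not called at -0.47 and COL11A2 was not tested.

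COL1A2, the alpha 2 chain of type I, was at 38.1, 39.4 and 34.3 FPKM in hiPSCs and 0.97, 0.73 and 1.82 FPKM in D70-ROs, a log2 fold change of -5.10 ± 0.260 (edgeR, adjusted p = 2.04e-08). Its partner COL1A1 stood at 19.1, 19.0 and 18.1 FPKM against 1.39, 1.19 and 2.23 FPKM (-3.92 ± 0.136, edgeR adjusted p = 1.48e-09). In both genes every hiPSC library lay above every D70-RO library. COL26A1, a collagen-like secreted protein first described in testis and ovary, fell from 47.1, 57.5 and 40.6 FPKM to 1.83, 1.65 and 2.05 FPKM (-4.85 ± 0.178, edgeR adjusted p = 2.27e-09). COL14A1, which binds fibril surfaces, fell from 5.52, 6.08 and 4.77 FPKM to 0.10, 0.03 and 0.05 FPKM, the largest fall of a collagen in this comparison at -7.96 ± 0.265 (edgeR, adjusted p = 1.10e-09). COL16A1, another fibril-associated chain, fell by 2.97 on the log2 scale from 2.11, 2.96 and 2.21 FPKM, with D70-RO replicate 1 at 1.28 FPKM above the other two at 0.26 and 0.32 FPKM, and was at -3.57 without that library.

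COL18A1, the basement membrane proteoglycan whose end is the endostatin fragment, was the most abundant collagen of hiPSCs at 112.5, 131.6 and 91.8 FPKM. It was at 20.8, 28.7 and 13.7 FPKM in D70-ROs, with no overlap (-2.59 ± 0.248, edgeR adjusted p = 2.79e-06). Its exons overlap those of SLC19A1 on the opposite strand in GENCODE 29, and whether the counting used strand is not stated, so its level is uncertain. The type VI chain COL6A2 fell from 96.6, 91.6 and 81.7 FPKM to 20.9, 24.2 and 19.1 FPKM (-2.21 ± 0.137, edgeR adjusted p = 8.49e-08), and COL6A1 from 86.1, 85.8 and 72.5 FPKM to 39.1, 47.6 and 39.6 FPKM (-1.09 ± 0.134, adjusted p = 2.10e-05). The call of COL6A1 is a narrow one, since upper-quartile scaling gave -0.99. COL9A3, a type IX chain, fell by 1.49 on the log2 scale, from 25.2, 25.2 and 22.5 FPKM to 8.86, 16.2 and 3.73 FPKM, and was at -2.11 without D70-RO replicate 2. Among the basement membrane collagens, COL4A1 fell from 33.9, 34.7 and 25.7 FPKM to 8.53, 7.87 and 7.58 FPKM (-2.23 ± 0.139, edgeR adjusted p = 9.10e-08), whereas COL4A2 had a log2 fold change of -0.94, just inside the 2-fold limit. The hiPSC levels of COL4A2 were 41.8, 48.2 and 33.9 FPKM and its D70-RO levels 21.7, 23.5 and 23.3 FPKM.

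COL25A1, a neuronal transmembrane collagen, had the largest rise, from 0.94, 0.60 and 0.71 FPKM in hiPSCs to 10.6, 8.16 and 12.1 FPKM in D70-ROs (3.54 ± 0.235, edgeR adjusted p = 1.45e-07). COL11A1, a minor fibrillar chain that sits inside type II fibrils, rose from 5.89, 5.21 and 4.89 FPKM to 39.7, 36.5 and 44.2 FPKM (2.86 ± 0.125, edgeR adjusted p = 6.63e-09). COL2A1, the major vitreous chain, rose from 5.01, 4.98 and 3.69 FPKM to 26.5, 36.9 and 20.4 FPKM (2.50 ± 0.228, edgeR adjusted p = 1.91e-06). None of these genes had overlapping groups. COL9A2 rose by 2.32 ± 0.215 on the log2 scale, from 2.17, 2.39 and 2.42 FPKM to 10.3, 16.8 and 12.1 FPKM. The transmembrane COL23A1 rose by 1.98 ± 0.210, from 4.92, 4.01 and 3.84 FPKM to 16.6, 24.3 and 14.8 FPKM, and COL13A1, a transmembrane collagen of cell junctions, by 1.91. COL5A1, which nucleates type I fibrils, rose by 1.59 ± 0.158, whereas its partner COL5A2 was at -0.80 and not called. In the same comparison the mesenchymal markers went from 282 to 340 down to 23.5 to 39.7 FPKM. THY1 made most of that fall, at means of 275.3 and 11.58 FPKM, and not all members fell, with PDGFRB at 4.857 and 9.22 FPKM. The part of these markers in the collagen values was not tested.

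From D70-ROs to D150-ROs, 30 collagens were tested, 9 rose, 5 fell and 16 were not called, with 2 falls in place of 5 under limma on log2(FPKM + 1), limma on log2(FPKM + 0.1) and the test against a 2-fold change. The background was 33.3% of 12855 genes called, 16.6% higher and 16.7% lower. The median was 0.11 over the collagens tested and -0.01 over all genes. Most of the collagens that rose were rare at day 70, and 6 of the tested ones were at 1 FPKM only in D150-ROs. These were COL4A3, COL5A3, COL6A6, COL8A1, COL11A2 and COL12A1. The lens, pigment epithelium (mostly through PMEL) and endothelial (through KDR) marker sums also differed between the stages. KDR had means of 7.253 FPKM in D70-ROs and 89.22 FPKM in D150-ROs, while the endothelial CLDN5 went from 9.063 to 0.8533 FPKM. The part of these markers in the collagen values was not tested. The type IV chains COL4A1 and COL4A2 and the type VI chains COL6A1 and COL6A2 were not called.

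COL12A1, a fibril-associated collagen of tendon and cornea, had the largest rise, from 0.08, 0.05 and 0.04 FPKM to 11.7, 11.8 and 10.8 FPKM (7.23 ± 0.173, edgeR adjusted p = 4.17e-08). COL5A3, a type V chain, rose from 0.02, 0.04 and 0.01 FPKM to 1.32, 1.19 and 1.13 FPKM (5.42 ± 0.367, edgeR adjusted p = 2.69e-06). Neither gene reached 0.1 FPKM in a D70-RO library. COL4A3, a chain of the mature glomerular and ocular basement membrane network, rose from 0.08, 0.07 and 0.03 FPKM to 1.01, 1.25 and 2.15 FPKM (4.28 ± 0.381, edgeR adjusted p = 1.28e-05). Its divergent neighbour COL4A4 was at 0.08, 0.04 and 0.07 FPKM in D70-ROs and higher in every D150-RO library, at 0.39, 0.42 and 0.65 FPKM, but too low to be tested. COL16A1 rose from 1.28, 0.26 and 0.32 FPKM to 7.80, 6.45 and 9.11 FPKM (3.91 ± 0.303, edgeR adjusted p = 5.93e-06), and was at 4.53 without D70-RO replicate 1.

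COL7A1, the chain of anchoring fibrils, rose from 1.19, 2.46 and 1.38 FPKM to 15.0, 17.6 and 9.72 FPKM (3.68 ± 0.131, edgeR adjusted p = 1.26e-07). Its FPKM spread more than its counts in D150-ROs, which were 1629, 1537 and 1485. COL8A1, a short-chain collagen of endothelial and corneal basement membranes, rose from 0.08, 0.09 and 0.26 FPKM to 3.00, 2.62 and 1.90 FPKM, by 3.43 ± 0.372 on the log2 scale and 4.15 without D70-RO replicate 3. COL6A6, a long type VI chain, rose by 2.87 ± 0.113, and COL11A2 by 2.37 ± 0.323, a call lost at 0.92 under limma on log2(FPKM + 1). COL5A1 rose from 12.2, 12.9 and 16.5 FPKM to 40.1, 40.0 and 45.9 FPKM (1.37 ± 0.123, edgeR adjusted p = 1.33e-05).

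Of the 3 transmembrane chains tested, 2 fell. COL13A1 went from 13.9, 18.1 and 14.5 FPKM to 1.88, 1.69 and 1.44 FPKM (-3.58 ± 0.179, edgeR adjusted p = 6.04e-07), and COL23A1 from 16.6, 24.3 and 14.8 FPKM to 4.10, 4.10 and 4.57 FPKM (-2.36 ± 0.197, edgeR adjusted p = 9.23e-06). COL26A1 fell by 1.29 on the log2 scale, from 1.83, 1.65 and 2.05 FPKM to 0.82, 1.00 and 0.80 FPKM. COL4A6 fell by 1.21, from 4.13, 5.06 and 3.63 FPKM to 2.13, 1.99 and 2.34 FPKM. Both calls were lost in the test against a 2-fold change and under limma, where COL26A1 was at -0.60 and COL4A6 at -0.73 on log2(FPKM + 1). COL9A3 passed the limits at -1.15 ± 0.445 (edgeR, adjusted p = 0.0420), but its levels of 8.86, 16.2 and 3.73 FPKM overlapped the 4.43, 4.59 and 6.06 FPKM of D150-ROs. Leaving out any library but D70-RO replicate 3 ended that call, with log2 fold changes from -0.53 without D70-RO replicate 2 to -1.30 without D150-RO replicate 3. Its exons also overlap TCFL5 on the opposite strand. COL2A1 and COL11A1 were not called, with COL2A1 at 23.3, 21.3 and 22.1 FPKM in D150-ROs (-0.56) and COL11A1 at 47.0, 45.9 and 44.1 FPKM (-0.16). The median of all genes was 0.19 on log2(FPKM + 1) and -0.01 with TMM factors, and COL11A1, at a mean of 40.1 FPKM in D70-ROs and 45.7 FPKM in D150-ROs, was higher in FPKM and lower from counts, so it is given no direction.

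**Figure D3:**
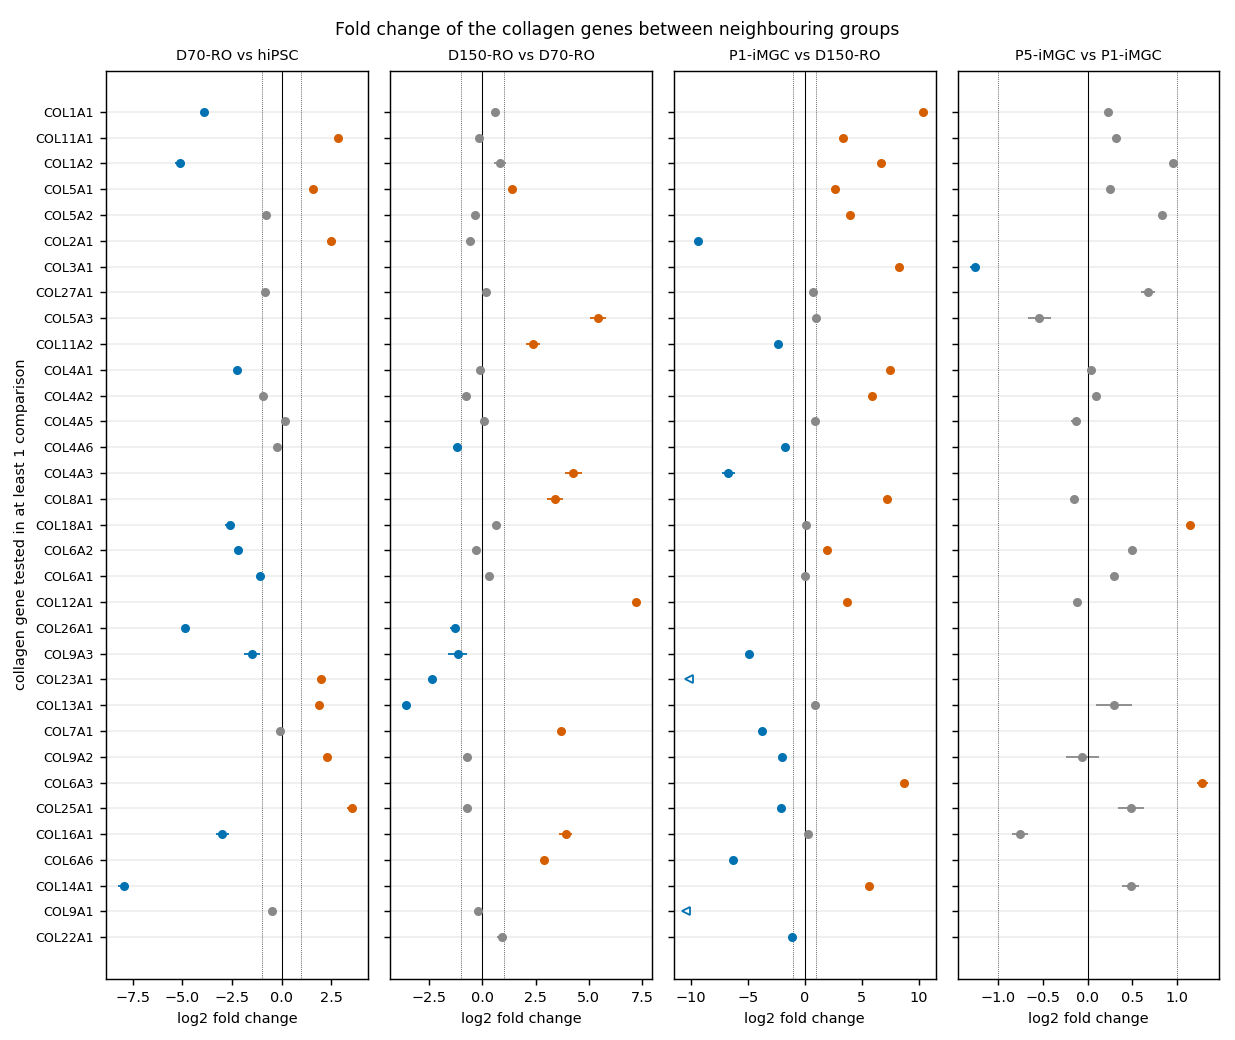
Log2 fold change of each tested collagen in the 4 comparisons (x axes differ in range), with SE as bars, called rises in orange, called falls in blue and genes not called in grey, and dotted lines at a 2-fold change. Open triangles mark COL9A1 and COL23A1, which had no counts in P1 iMGCs, so that their fitted value depends on the prior count. P1 iMGCs against D150-ROs spans the widest range, from COL2A1 at -9.41 to COL1A1 at 10.36 among genes with counts in both groups.

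From D150-ROs to P1 iMGCs, 32 collagens were tested, 13 rose, 12 fell and 7 were not called. Over all 12896 genes tested 44.1% were called, 20.0% higher and 24.1% lower. The median was 0.78 over the collagens tested and -0.05 over all genes. The collagens that rose were chains of types I, III, IV, V, VI, VIII, XI, XII and XIV, and those that fell included the 3 type IX chains, COL2A1 and COL11A2, COL4A3 and COL4A6. Of the 12 that were at 1 FPKM in only 1 of the groups, 3 were high in iMGCs, namely COL3A1, COL6A3 and COL14A1. The others were high in D150-ROs and are all among the falls. They were COL2A1, COL4A3, COL4A6, COL6A6, COL9A1, COL9A3, COL11A2, COL22A1 and COL23A1. The calls of these 12 could hardly be avoided, so their p-values add little. In the same comparison the mesenchymal markers went from 34.3 to 41.8 up to 183 to 189 FPKM. Of these 12 markers, 5 were at 1 FPKM or more in D150-ROs and 8 in P1 iMGCs, with none at 0. PDGFRB, THY1 and SNAI2 led the P1 sum at 62.65, 51.02 and 44.26 FPKM. PDGFRA and PRRX1 had lower means in P1 iMGCs, at 0.1067 against 6.303 FPKM and 0.01333 against 0.08667 FPKM. Of the 10 photoreceptor markers, 7 were at 0 in P1 iMGCs. Their part in the collagen values was not tested.

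COL1A1 had the largest rise of all collagens, from 2.68, 2.77 and 2.86 FPKM in D150-ROs to 1946, 2053 and 2002 FPKM in P1 iMGCs (10.36 ± 0.0765, edgeR adjusted p = 6.70e-20). In GENCODE 29 (GRCh38) it lies on the minus strand at chr17:50183289-50201632. COL1A2 rose from 2.31, 2.38 and 2.64 FPKM to 159.7, 162.5 and 157.4 FPKM (6.69 ± 0.0644, edgeR adjusted p = 1.77e-19). COL3A1, the type III chain that accompanies type I in soft tissue, rose from 0.16, 0.10 and 0.17 FPKM to 29.2, 25.7 and 24.4 FPKM (8.28 ± 0.140, edgeR adjusted p = 3.54e-17). Every iMGC library lay above every organoid library in these genes.

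Of the type V chains, COL5A1 and COL5A2 rose and COL5A3 was not called. COL5A2 went from 6.07, 6.07 and 6.98 FPKM to 59.7, 58.1 and 56.9 FPKM (3.95 ± 0.0496, edgeR adjusted p = 1.70e-18) and COL5A1 from 40.1, 40.0 and 45.9 FPKM to 174.0, 184.9 and 179.0 FPKM (2.60 ± 0.0576, edgeR adjusted p = 9.30e-16). COL11A1 rose from 47.0, 45.9 and 44.1 FPKM to 274.1, 281.3 and 286.1 FPKM (3.32 ± 0.0479, edgeR adjusted p = 6.86e-18). COL2A1 and COL11A2 moved the other way. COL2A1 fell from 23.3, 21.3 and 22.1 FPKM to 0.03, 0.02 and 0.01 FPKM, with 5 counts left over the 3 P1 libraries (-9.41 ± 0.156, edgeR adjusted p = 2.57e-17), and COL11A2 fell from 1.47, 1.20 and 1.26 FPKM to 0.16, 0.12 and 0.21 FPKM (-2.32 ± 0.231), a call lost at -0.99 under limma on log2(FPKM + 1). COL5A3 was at 1.52 ± 0.155 FPKM in P1 iMGCs and 1.21 ± 0.0971 FPKM in D150-ROs, a log2 fold change of 0.96 under the 2-fold limit, and COL27A1, a fibrillar chain of cartilage, was not called at 0.70.

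Of the basement membrane collagens, COL4A1 rose from 7.48, 8.26 and 8.19 FPKM to 926.5, 955.3 and 957.8 FPKM (7.49 ± 0.0668, edgeR adjusted p = 1.74e-19). COL4A2 rose from 17.1, 24.3 and 21.0 FPKM to 615.5, 622.2 and 617.2 FPKM (5.92 ± 0.0642, edgeR adjusted p = 5.84e-19). Both are the chains of the general basement membrane network, transcribed away from the shared stretch shown above. COL4A3 had 3 counts in the P1 libraries, all of them in replicate 2, against 520 in D150-ROs, a log2 ratio of -6.85 with a 95% counting interval of -9.13 to -5.30. COL4A6 fell from 2.13, 1.99 and 2.34 FPKM to 0.34, 0.44 and 0.46 FPKM (-1.73 ± 0.159, edgeR adjusted p = 4.68e-08), and its neighbour COL4A5 was not called at 0.87, with 20.2, 16.1 and 15.0 FPKM in D150-ROs and 13.8, 11.9 and 14.3 FPKM in P1 iMGCs. Counting intervals and limits cover counting error only.

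Among the other collagens, COL8A1 rose from 3.00, 2.62 and 1.90 FPKM to 232.4, 209.4 and 219.1 FPKM (7.22 ± 0.0789, edgeR adjusted p = 5.89e-19). COL12A1 rose from 11.7, 11.8 and 10.8 FPKM to 81.0, 76.1 and 72.02 FPKM (3.73 ± 0.0522, edgeR adjusted p = 5.22e-18). COL6A3, the third chain of the common type VI trimer, rose from 0.02, 0.02 and 0.03 FPKM to 5.65, 5.09 and 5.81 FPKM (8.67 ± 0.160, edgeR adjusted p = 1.03e-16). Each of these genes was far apart between the groups. COL14A1 rose by 5.64 ± 0.235 on the log2 scale and COL6A2 by 1.98 ± 0.0455, the latter from 20.4, 20.4 and 20.5 FPKM to 50.8, 51.5 and 52.4 FPKM.

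The fibril-associated type IX chains and several membrane and anchoring collagens fell. COL9A1, at 4.21, 4.48 and 4.07 FPKM in D150-ROs, had 0 counts in the P1 libraries against 631, and was at least 140-fold lower when 3 counts are allowed over the P1 group. COL23A1, at 4.10, 4.10 and 4.57 FPKM in D150-ROs, had 0 against 523 counts and was at least 116-fold lower by the same limit. COL9A3 fell by 4.92 ± 0.306 and COL9A2 by 2.04 ± 0.121 on the log2 scale, the latter from 8.73, 9.25 and 9.14 FPKM to 1.5, 1.22 and 1.69 FPKM. COL6A6 fell from 6.24, 5.53 and 6.21 FPKM to 0.04, 0.11 and 0.04 FPKM (-6.27 ± 0.156, edgeR adjusted p = 3.75e-15). COL7A1 fell by 3.79 ± 0.105 and COL25A1 by 2.12 ± 0.117. COL22A1, a chain of tissue junctions, fell by 1.10 ± 0.203 on the log2 scale, and at -0.91 was under the 2-fold limit without P1 replicate 1.

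Some collagens of intermediate level were not called, and for these the scale matters. Across all genes tested the median log2 fold change was -0.05 with TMM factors but -0.59 on log2(FPKM + 1), and upper-quartile scaling moved the median by -0.11. COL6A1 was at 64.8, 62.7 and 56.8 FPKM in D150-ROs and 40.9, 39.9 and 39.1 FPKM in P1 iMGCs, and so lower in FPKM, while its log2 fold change from counts was 0.04 ± 0.0518. COL18A1 was at 37.5 ± 1.52 and 26.1 ± 0.486 FPKM with a log2 fold change from counts of 0.14, and COL16A1 at 7.79 ± 1.33 and 5.16 ± 0.457 FPKM with 0.25. COL4A5 and COL27A1 likewise had lower mean FPKM in P1 iMGCs and positive log2 fold changes from counts. No direction is given for these genes. COL13A1, at 0.86, was not called either.

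From P1 to P5 iMGCs, 22 collagens were tested, 2 rose, 1 fell and 19 were not called. Of all 11366 genes tested, 2.92% were called, 1.94% higher and 0.977% lower. The median was 0.27 over the collagens tested and 0.00 over all genes. COL6A3 rose from 5.65, 5.09 and 5.81 FPKM to 12.5, 12.1 and 13.7 FPKM (1.28 ± 0.0564, edgeR adjusted p = 4.92e-15). COL18A1 rose from 26.3, 26.6 and 25.6 FPKM to 55.4, 54.4 and 55.8 FPKM (1.14 ± 0.0386, edgeR adjusted p = 3.21e-17), and the limit from its overlap with SLC19A1 applies here too. COL3A1 fell from 29.2, 25.7 and 24.4 FPKM to 10.4, 10.6 and 9.78 FPKM (-1.26 ± 0.0613, edgeR adjusted p = 3.45e-14). The P1 and P5 libraries did not overlap in these genes, but the call of COL3A1 was lost when all 5 groups entered 1 fit (-1.28, edgeR adjusted p = 0.0730). COL3A1 was at 0.08, 2.48 and 2.82 FPKM in hiPSCs, and the part of these libraries in the lost call was not tested.

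Changes under 2-fold were precise between the passages. COL1A2 went from 159.7, 162.5 and 157.4 FPKM to 296.4, 298.1 and 299.0 FPKM, a log2 fold change of 0.96 ± 0.0347 (edgeR, adjusted p = 1.11e-16) that was not called. COL5A2 was likewise at 0.84 ± 0.0351, with 102.3, 97.5 and 98.3 FPKM in P5 iMGCs. COL1A1 was at 2102, 2352 and 2196 FPKM in P5 iMGCs (0.23 ± 0.0426) and COL11A1 at 334.7, 342.7 and 338.3 FPKM (0.31 ± 0.0345). COL4A1, at 936.8, 940.1 and 937.0 FPKM, had a log2 fold change of 0.04 ± 0.0351 and overlapped between passages, as did COL4A2 at 620.3, 640.2 and 635.2 FPKM (0.09 ± 0.0357). COL8A1 at 189.6, 219.9 and 190.5 FPKM (-0.15) and COL12A1 at 66.1, 70.1 and 69.4 FPKM (-0.13) were not called, nor were COL5A1 at 189.7, 214.5 and 200.6 FPKM, COL6A1 at 44.8, 47.3 and 48.4 FPKM and COL6A2 at 67.5, 71.0 and 71.0 FPKM. COL9A1 and COL23A1 had no counts in either passage, and COL2A1 had none in P5.

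Because FPKM are per transcript length, the chains that join in 1 trimer can be set beside each other. Type I collagen is mostly a trimer with 2 COL1A1 chains and 1 COL1A2 chain. The ratio of COL1A1 to COL1A2 in FPKM was 0.504 ± 0.0233 in hiPSCs, 1.43 ± 0.203 in D70-ROs, 1.14 ± 0.0455 in D150-ROs, 12.5 ± 0.284 in P1 and 7.44 ± 0.408 in P5 iMGCs. COL4A1 to COL4A2, also a 2 to 1 trimer, stood at 0.763 ± 0.0462 in hiPSCs, 0.351 ± 0.0365 in D70-ROs, 0.389 ± 0.0489 in D150-ROs, 1.53 ± 0.0236 in P1 and 1.49 ± 0.0224 in P5 iMGCs. In FPKM the ranges of the type I ratio did not overlap between any of the groups, and those of the organoid stages lay closest, at 1.22 to 1.63 and 1.08 to 1.16. Taken from expected counts, which are not per length, the organoid ranges did overlap, at 1.11 to 2.22 and 1.20 to 1.37. For the type IV ratio the organoid stages overlapped in FPKM but not in counts, where D70-ROs lay at 0.287 to 0.366 and D150-ROs at 0.505 to 0.523. No order of the organoid stages is therefore given for either ratio.

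**Figure D4:**
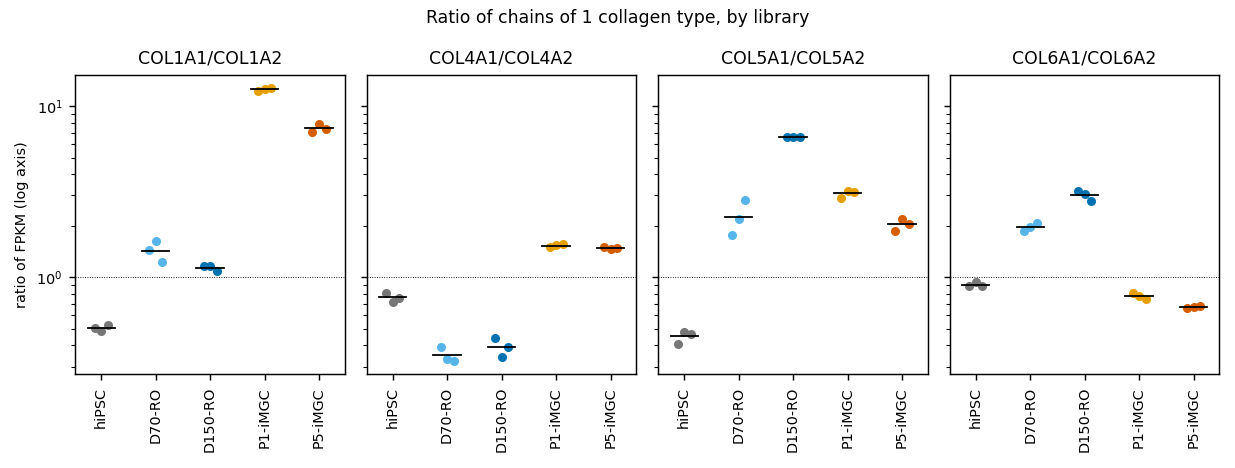
Ratio of FPKM between the chains of types I, IV, V and VI collagen in each library (points; log axis), with the mean of 3 libraries as a line and a dotted line at equal levels. COL1A1 to COL1A2 is 12.5 in P1 iMGCs and 0.504 in hiPSCs, and COL6A1 to COL6A2 is 3.01 in D150-ROs and under 1 in iMGCs.

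COL5A1 to COL5A2 went from 0.452 ± 0.0392 in hiPSCs to 2.25 ± 0.533 in D70-ROs and 6.59 ± 0.0182 in D150-ROs, and was 3.08 ± 0.146 in P1 and 2.03 ± 0.173 in P5 iMGCs. COL6A1 to COL6A2 was 0.905 ± 0.0270, 1.97 ± 0.102, 3.01 ± 0.210, 0.776 ± 0.0288 and 0.671 ± 0.00966 in the same order. COL6A3, which completes the type VI trimer, was the scarce chain, at 0.0194 of COL6A1 in hiPSCs, 0.138 ± 0.0105 in P1 and 0.273 ± 0.0140 in P5 iMGCs, and was under 1 FPKM in organoids. The ratio of COL4A5 to COL4A6 was 8.004 ± 1.54 in D150-ROs, against 2.89 ± 0.419 in D70-ROs and 2.49 ± 0.108 in hiPSCs. In D150-ROs COL11A1 stood 35.1 ± 3.15 times above COL11A2, and COL9A2 1.83 ± 0.281 times above COL9A3. In D70-ROs the type IX ratios spread widely, as COL9A3 did, with COL9A2 to COL9A3 at 1.16, 1.04 and 3.25.

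Collagen chains are hydroxylated and glycosylated in the endoplasmic reticulum, folded and exported with dedicated chaperones, trimmed by proteases, cross-linked by lysyl oxidases and bound by proteoglycans and receptors. A list of 54 such genes in 6 groups was tested in the same fits. From D150-ROs to P1 iMGCs, 45 were tested, 36 rose and 1 fell, with a median log2 fold change of 2.76, against 20.0% of all genes higher and 24.1% lower and a median of -0.05. All 5 lysyl oxidases rose, among them LOX from 1.64 ± 0.165 to 211.6 ± 2.84 FPKM (7.67) and LOXL2 from 4.04 ± 0.303 to 342.5 ± 6.04 FPKM (7.18). Of 13 hydroxylation and glycosylation genes 11 rose, led by the lysyl hydroxylases PLOD2 (4.15) and PLOD1 (3.94), and the galactosyltransferase COLGALT2 fell by 3.30 on the log2 scale. Of 10 folding and export genes 7 rose, including CREB3L1 (5.86), a transcription factor of the secretory pathway, and SERPINH1 (3.82), the collagen chaperone, from 19.9 ± 2.20 to 180.2 ± 8.25 FPKM.

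Of 7 propeptide cleavage genes 5 rose, with ADAMTS14 (7.29) and BMP1 (4.06) ahead. The proteoglycans BGN (8.71), LUM (6.67) and DCN (5.71) rose, being the 3 of 7 that were high enough to test. Of 7 receptors tested 5 rose, led by the integrin chain ITGA11 (9.15), the uptake receptor MRC2 (5.26) and ITGB1 (5.19). All these values are log2 fold changes from counts. Mean FPKM in D150-ROs was 0.11 for BGN, 0.65 for LUM, 0.113 for DCN, 0.0333 for ADAMTS14, 0.137 for ITGA11 and 0.387 for ITGA1. These genes passed the filter through the P1 iMGCs, where they are high, so their calls could hardly be avoided. They are counted among the rises of the list, and such genes were not tallied for it.

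**Figure D5:**
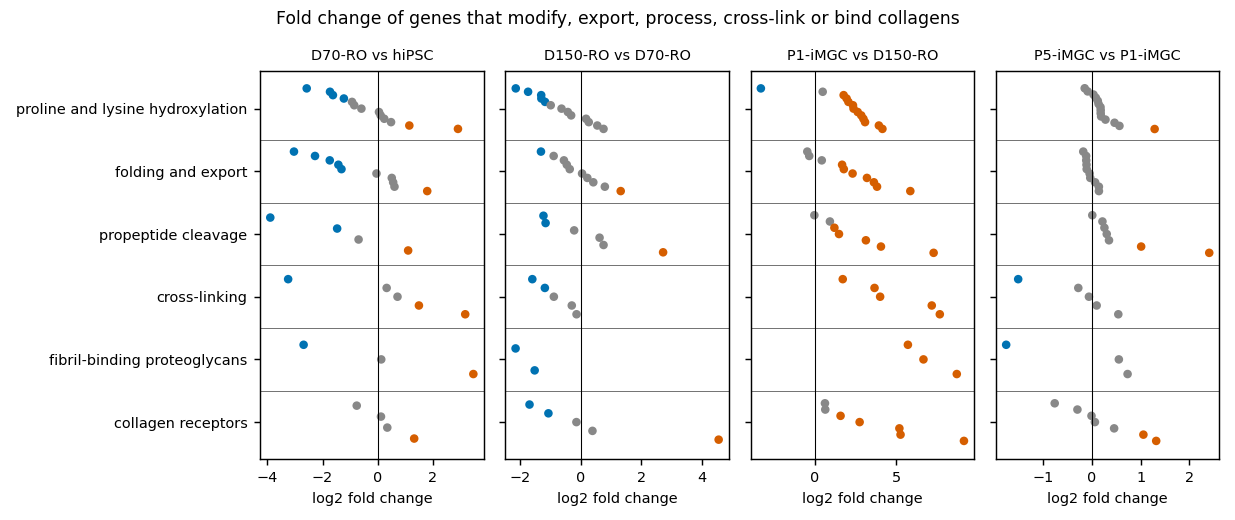
Log2 fold change of the tested genes of 6 lists that act on collagens in the 4 comparisons (x axes differ in range), with called rises in orange, called falls in blue and genes not called in grey, 1 point a gene. From D150-ROs to P1 iMGCs 36 of 45 points are called rises, and COLGALT2 is the called fall.

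In the other steps fewer genes of these lists were called. From hiPSCs to D70-ROs, 39 were tested, 8 rose and 13 fell, with a median of 0.05, against 22.5% of all genes higher and 21.1% lower. SERPINH1 fell from 314.5 ± 29.3 to 43.5 ± 5.45 FPKM (-3.04). LOXL2 and the procollagen protease enhancer PCOLCE2 had log2 fold changes of -3.25 and -3.90, while LUM (3.47), LOXL4 (3.17) and COLGALT2 (2.91) rose. LUM and LOXL4, at means of 0.13 and 0.187 FPKM in hiPSCs, and PCOLCE2, at 0.437 FPKM in D70-ROs, passed the filter only through the group where they are high. From D70-ROs to D150-ROs, 41 were tested, 3 rose and 14 fell, with a median of -0.42, against 16.6% of all genes higher and 16.7% lower. The collagen-binding kinase DDR2 (4.54), PCOLCE2 (2.71) and the export factor MIA3 (1.32) rose. The prolyl hydroxylase chain P4HA1 and the vitreous proteoglycan OPTC fell, at -2.13 and -2.14. DDR2 and PCOLCE2, at means of 0.13 and 0.437 FPKM in D70-ROs, and OPTC, at 0.407 FPKM in D150-ROs, likewise passed the filter through 1 group. From P1 to P5 iMGCs, 46 were tested, 5 rose and 2 fell, with a median of 0.13, against 1.94% of all genes higher and 0.977% lower. PCOLCE (2.41), ITGA11 (1.32), P4HA3 (1.29), DDR2 (1.06) and TLL2 (1.01) rose, and DCN fell by 1.75 and LOXL4 by 1.51 on the log2 scale.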

How the data were processed

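Per the labels and methods, HISAT2 mapped the reads, StringTie built transcripts and RSEM gave the gene values. Versions, build and annotation are not given in the sources used here. The deposited tables hold expected counts per gene, not normalized, and FPKM, in which the authors corrected for transcript length and library depth. Between 8.21% and 10.1% of the expected counts were not whole, and they were rounded. A further table, of D150-ROs beside iMGCs of no stated passage, was not used, which left 12 columns of library values out. Identifiers were matched to GENCODE 29 (19684 of 19684).

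The collagen classes, the marker lists and the list of 54 genes acting on collagens were chosen with earlier results of these data known. Every collagen may be named. Values in each library are given for the 12 with the highest mean in a group, paired chains, and the 5 largest rises and falls of each comparison, and up to 4 genes of each other list.

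edgeR 4.0.16 (R 4.3.3) compared 2 groups of 3 libraries at a time, without covariates, over genes at 1 FPKM in at least 3 libraries. DESeq2 1.42.0, limma 3.58.1 and other settings served as alternatives. The fits were also run on simulated data. These simulations changed few genes, in both directions at random, and so could not test the scaling where many genes differ. No replicate pair agreed within sampling noise. The sources give 2 or 3 independent experiments for hiPSCs and ROs, so p-values measure the spread between these libraries, part of which may be technical.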

Additional observations from a re-analysis of the deposited data

How the results depend on the processing

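No called collagen reversed under these alternatives. Of 876 values of single called collagens under them, 849 kept direction and call and 27 kept direction but lost the call. Of 49 values not called, 12 had the other sign under at least 1 alternative with all libraries, 11 of them under limma on FPKM (COL6A1 and COL11A1 among them) and 3 under upper-quartile scaling. The lost calls concerned COL6A1 and COL9A3 from hiPSCs to D70-ROs, COL9A3, COL26A1, COL4A6 and COL11A2 from D70-ROs to D150-ROs, COL22A1 and COL11A2 from D150-ROs to P1 iMGCs, and COL3A1 from P1 to P5 iMGCs. Testing without a filter, which adds genes, gave 19 falls in place of 10 from hiPSCs to D70-ROs and 2 in place of 1 from P1 to P5. From D70-ROs to D150-ROs, 2 falls in place of 5 were left by limma on log2(FPKM + 1), limma on log2(FPKM + 0.1) and the test against a 2-fold change, and the cause was not tested. With all 5 groups in 1 fit, 0 falls were called from P1 to P5 (edgeR), where 1 collagen was lower by 2-fold at an unadjusted p under 0.05 (COL3A1 at -1.28) and DESeq2 with the 2 groups called 1, and the cause was not tested. Leaving out a library moved no count of calls by over 1.5 times.

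The summed FPKM was 12.6 times higher in P1 iMGCs than in D150-ROs, 8.72 times without the most abundant member of each library and 14.8 times as a share of counts. Leaving out single libraries of these sums was an alternative chosen after seeing the data. Ratios taken from counts in place of FPKM changed most for COL4A1/COL4A2, whose P1 to D150-RO quotient was 2.97 in place of 3.93 and whose D150-RO to D70-RO quotient was 1.56 in place of 1.11. For COL1A1/COL1A2 the P1 quotient was 12.7 in place of 11.02, for COL5A1/COL5A2 0.393 in place of 0.468, and for COL4A5/COL4A6 the D70-RO to hiPSC quotient was 1.38 in place of 1.16. The cause was not tested.

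Replicate numbers were not shown to pair libraries, since deviations of equal numbers correlated at -0.0795 to 0.350. With the replicate number as a block, 4 falls in place of 5 were called from D70-ROs to D150-ROs (COL9A3 at -0.96, edgeR adjusted p = 0.0717), and the block changed no other count of calls. Depth limits collagens with few counts, and chains under 1 FPKM in a group were left out of ratios.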

Other observations

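Some collagens varied between libraries of 1 group. In hiPSCs, replicate 1 was low for COL3A1 (0.08 FPKM against 2.48 and 2.82) and for COL6A3 (0.60 FPKM against 2.24 and 1.81). In D70-ROs, replicate 2 was high for COL9A3 (16.2 FPKM against 8.86 and 3.73) and for COL10A1 (0.58 FPKM against 0.08 and 0.05). COL7A1 was at 1.36, 0.45 and 0.42 FPKM in P1 iMGCs from 86, 69 and 68 counts, so its FPKM spread more than its counts.

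Several collagens that were not tested had levels near 1 FPKM in a single group. COL28A1, a collagen of peripheral glia, was at 1.25, 1.15 and 0.94 FPKM in D150-ROs and at a mean of 0.10 FPKM in D70-ROs. COL21A1 was at 1.35, 0.74 and 0.87 FPKM in hiPSCs and 0.15 ± 0.0493 FPKM in D70-ROs, and COL17A1, the hemidesmosome collagen, at 0.66 ± 0.183 FPKM in hiPSCs and at most 0.09 FPKM in a library of any other group.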
